A study of Mus musculus with 37 samples.

Results

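The RNA levels of 7 genes that make and remove superoxide in phagocytes were followed in bone marrow-derived macrophages (BMDMs) over 48 h of TLR4 stimulation, with and without the clock factor Bmal1. The genes were taken from the table by symbol, as 7 of the 24016 genes listed. They are *Cybb* and *Cyba*, the membrane subunits of the phagocyte NADPH oxidase, *Ncf1* and *Ncf4*, cytosolic subunits of it, *Rac2*, a small GTPase that joins the complex, and the superoxide dismutases *Sod1* and *Sod2*. Each condition had 1 library, so no difference below has a replicate check or a p-value, and intervals cover counting error only.

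The BMDMs came from male mice aged 6 to 9 weeks, either WT (C57BL/6J) or Arntl-/-, which lack Bmal1 in the whole body, and were cultured for 6 days with M-CSF. Polyadenylated RNA was sequenced before (0 h) and 6, 24 and 48 h after Kdo2-lipid A (KLA), a pure TLR4 agonist, in 1 library for each of the 2 genotypes at the 4 times. The sources describe the WT mice both as a purchased strain and as littermates. All 8 libraries carry the C57BL/6J label. How many mice were pooled for a library and the KLA dose used for these RNA libraries are not given in the sources used here.

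As background, the phagocyte NADPH oxidase carries electrons from NADPH across the membrane to oxygen and so releases superoxide into phagosomes or outside the cell. In resting cells its membrane pair is separate from a cytosolic complex, which is recruited, together with a Rac GTPase, when the cell is activated. Superoxide dismutases turn superoxide into hydrogen peroxide, which catalase, peroxiredoxins and glutathione peroxidases remove. *Cybb* and *Ncf1* are among the genes whose loss causes chronic granulomatous disease, and *Sod2* is a known NF-κB target.

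The levels below are scaled FPKM, that is, the deposited reads per kb of exon and per 10000000 reads, divided by a size factor for each library that ranged from 0.909 to 1.11. The libraries held 8587560 to 27036783 reads on genes, the most in WT cells at 6 h. The deleted gene *Arntl*, at 0, 6, 24 and 48 h, had a scaled FPKM of 34.7, 32.6, 35.9 and 39.1 with WT cells and of 14.0, 11.4, 19.0 and 20.4 in Arntl-/- cells, so every Arntl-/- library lay below every WT library. *Nos2*, which makes nitric oxide and is a classic TLR4 target, reached 276 for WT and 529 for Arntl-/- BMDMs at 48 h, from 12.0 and 31.8 at 0 h, and *Il1b*, *Cxcl10* and *Ptgs2* also rose at 6 h in both genotypes. In the deepest library, WT at 6 h, the genes in the top 10% by expression lay a median of -0.35 (log2) from their mean over the 8 libraries, and in the 2 shallowest libraries, WT and Arntl-/- at 48 h, they lay 0.30 and 0.25 from it. All 7 genes belong to that top 10%, since at least 93.6% of the 10499 genes analysed had a lower mean level. The main ratios are therefore also given after a correction in which each library's deviation was smoothed against expression level (lowess) and subtracted, called level-corrected below. With 1 library per condition, depth and condition cannot be told apart.

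RefSeq promoters (GRCm38.p6, 250 bases before to 50 after the start) were at hand for 5 of the 7 genes, all but *Ncf4* and *Rac2*. Both strands were searched. The E-box CACGTG, the element that Bmal1 binds with Clock, was found in 0 of the 5 promoters and in 7.15% of all 32851. The NF-κB consensus was in 1 of the 5, that of *Sod2*, against 8.46% of all. The interferon response element, here 2 GAAA words with 2 bases between them, was in those of *Cybb* and *Ncf1*, against 3.44% of all, and the core GAGGAA of the myeloid factor PU.1 in those of *Cybb* (at +10, after the start) and *Sod2*, against 28.3%. Of the 7 matches, 0 overlapped a match of another motif. A match is a letter pattern and not a measured binding site. The 250 bases before the start are shown for the 2 genes with the largest increases after KLA. In *Sod2* (chr17:13007589-13007838, plus strand), capitals mark the NF-κB match at -83 to -74.
Sod2: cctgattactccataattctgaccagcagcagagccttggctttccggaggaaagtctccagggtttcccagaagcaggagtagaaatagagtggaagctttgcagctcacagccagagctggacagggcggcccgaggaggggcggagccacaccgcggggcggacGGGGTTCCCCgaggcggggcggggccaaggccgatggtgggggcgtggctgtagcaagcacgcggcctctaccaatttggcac
In *Cybb* (chrX:9469325-9469574, minus strand, printed 5′ to 3′ on the gene's strand), capitals mark the 3 matches of the interferon response element, which begin at -168, -124 and -29. The first 2 of them read on the opposite strand.
Cybb: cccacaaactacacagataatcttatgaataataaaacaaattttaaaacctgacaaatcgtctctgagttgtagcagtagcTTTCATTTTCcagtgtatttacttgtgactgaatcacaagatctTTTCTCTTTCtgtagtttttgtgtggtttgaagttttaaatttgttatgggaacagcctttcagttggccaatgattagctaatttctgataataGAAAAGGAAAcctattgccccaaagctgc

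All 7 genes were highly expressed in every library. The lowest of the 56 values was the scaled FPKM of *Sod2* in Arntl-/- cells at 0 h (468), and the highest that of *Cyba* in WT cells at 48 h (3322). Each value rested on 1011 to 25707 reads. Per base of exon this was 1.05 to 6.87 reads, where the authors' counting allowed at most 3 tags at 1 position. *Cyba*, *Cybb* and *Ncf1* held the top 3 places, in this order, in every library. In Arntl-/- cells at 48 h the ratio of *Cybb* to *Cyba* FPKM was 0.98, with a counting interval that spans 1 (0.94 to 1.02), and 1.01 level-corrected. Below these 3 genes the order was the same in both genotypes at 0 h (*Sod1*, *Ncf4*, *Rac2*, *Sod2*), at 6 h (*Ncf4*, *Sod1*, *Sod2*, *Rac2*) and at 24 h (*Ncf4*, *Sod2*, *Sod1*, *Rac2*). *Sod2* was thus last of the 7 at 0 h and passed *Rac2* at 6 h and *Sod1* at 24 h, and *Rac2* was last from 6 h on.

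**Figure D1:**
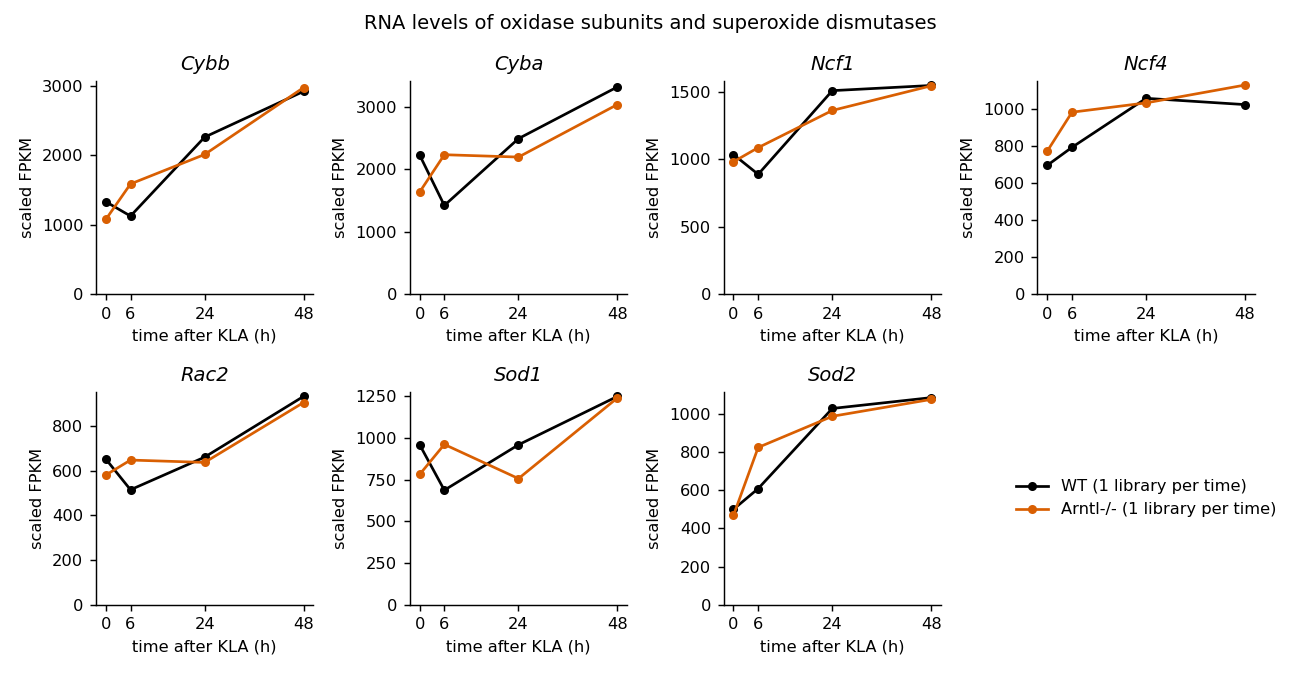
Scaled FPKM (linear axis from 0) of the 7 genes against time after KLA, with WT in black and Arntl-/- in orange and 1 point per library. Every gene but *Ncf4* is highest at 48 h in both genotypes, and WT at 6 h is the lower point of its pair for all 7 genes.

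The catalytic subunit rose after KLA in both genotypes. *Cybb* (NM_007807, mm9 chrX:9012380-9046450, minus strand) had, at 0, 6, 24 and 48 h, scaled FPKM of 1329, 1123, 2258 and 2915 for WT and of 1073, 1584, 2008 and 2970 in Arntl-/- cells. The 4 values at 24 and 48 h all lay above the 4 at 0 and 6 h. From 0 to 48 h it rose 2.19-fold in WT cells (counting interval 2.15 to 2.24) and 2.77-fold in Arntl-/- cells (2.71 to 2.83). Level-corrected, the log2 changes of 1.13 and 1.47 became 0.67 and 0.80, which is still past 1.5-fold. At 24 h the log2 changes were 0.76 for WT and 0.90 for Arntl-/- BMDMs, and 0.62 and 0.71 level-corrected.

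Its membrane partner did not keep pace. *Cyba* (NM_007806, chr8:124948671-124956840, minus strand), which stabilises the catalytic subunit and docks the cytosolic ones, had scaled FPKM of 2230, 1421, 2493 and 3322 for WT and of 1636, 2235, 2198 and 3040 for Arntl-/- BMDMs. The WT value at 6 h was the lowest of the 8, a 0.64-fold level of that at 0 h (counting interval 0.61 to 0.67), while the Arntl-/- value at 6 h was 1.37-fold that at 0 h. Level-corrected, the 2 log2 changes at 6 h were -0.08 and 0.19. The rise in Arntl-/- cells at 48 h, 1.86-fold or 0.89 on the log2 scale, was 0.15 level-corrected, and the WT change of 0.57 was 0.06. Within a library the ratio of *Cybb* to *Cyba* FPKM needs no scaling between libraries. It was 0.60 (0.57 to 0.62) in WT and 0.66 (0.63 to 0.68) in Arntl-/- cells at 0 h, and 0.91 in both at 24 h, with all 4 ratios from 24 h on above all 4 before. *Cyba* had 3.87 to 6.87 reads per base and *Cybb* 2.79 to 5.43. The effect on this ratio of the limit of 3 tags per position was not tested.

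Of the cytosolic subunits, *Ncf1* (NM_010876, chr5:134696129-134705495, minus strand) is the organiser that bridges the complex to the membrane and had scaled FPKM of 1037, 890, 1511 and 1550 for WT and of 983, 1088, 1364 and 1547 for Arntl-/- BMDMs. All 4 values at 24 and 48 h were above the 4 earlier ones, and the log2 changes at 24 h were 0.54 for WT and 0.47 for Arntl-/- BMDMs, or 0.42 and 0.31 level-corrected. Its exons share 175 bases with exons of *Gtf2ird2* on the opposite strand, and reads were counted without strand. *Gtf2ird2* had a scaled FPKM of 21.5 to 48.3.

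*Ncf4* (NM_008677, chr15:78075241-78093010, plus strand), which binds a phosphoinositide of phagosomes, had scaled FPKM of 695, 793, 1057 and 1023 for WT and of 772, 982, 1033 and 1129 for Arntl-/- BMDMs. It was at its lowest at 0 h in both genotypes. The WT change at 24 h was 1.52-fold (1.43 to 1.61), with an interval that spans 1.5-fold, and the Arntl-/- change was 1.34-fold. Level-corrected, the log2 changes of 0.60 and 0.42 became 0.50 and 0.27, neither past 1.5-fold. The ratio of *Ncf1* to *Ncf4* FPKM was 1.49 (1.42 to 1.57) in WT and 1.27 (1.22 to 1.32) in Arntl-/- cells at 0 h, and 1.12 and 1.11 at 6 h, the lowest of each genotype.

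*Rac2* (NM_009008, chr15:78389599-78403213, minus strand), the Rac GTPase of blood cells, had scaled FPKM of 653, 515, 661 and 933 for WT and of 581, 648, 637 and 905 for Arntl-/- BMDMs. Both 48 h values lay above the other 6. From 24 to 48 h the log2 change was 0.50 for WT and 0.51 for Arntl-/- BMDMs, and 0.34 and 0.29 level-corrected. *Rac1*, its widely expressed relative, had 758, 589, 729 and 687 for WT and 672, 716, 697 and 753 for Arntl-/- BMDMs. The ratio of *Rac2* to *Rac1* was 0.86 to 0.91 in the 6 libraries up to 24 h. At 48 h it was 1.36 (1.29 to 1.43) in WT and 1.20 (1.14 to 1.27) in Arntl-/- cells, so that *Rac2* exceeded *Rac1* per length at 48 h and in no earlier library.

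The 2 dismutases differed in course. *Sod1* (NM_011434, chr16:90220987-90226569, plus strand), the enzyme of the cytosol, had scaled FPKM of 960, 687, 960 and 1250 for WT and of 782, 962, 757 and 1240 for Arntl-/- BMDMs. Its values at 0, 6 and 24 h had no common direction in the 2 genotypes, and both 48 h values were the highest. *Sod2* (NM_013671, chr17:13200705-13210985, plus strand), the mitochondrial manganese enzyme, had 500, 609, 1028 and 1085 for WT and 468, 824, 987 and 1076 for Arntl-/- BMDMs. In each genotype its scaled level was higher at every later time, but the last step, from 24 to 48 h, was small (log2 0.08 and 0.12) and turned negative level-corrected (-0.10 and -0.14). It rose 2.06-fold (1.98 to 2.14) in WT and 2.11-fold (2.04 to 2.18) in Arntl-/- cells at 24 h. The log2 changes at 24 h, 1.04 and 1.08, were 0.95 in both genotypes level-corrected. The ratio of *Sod1* to *Sod2* FPKM was 1.92 (1.80 to 2.05) in WT and 1.67 (1.58 to 1.77) in Arntl-/- cells at 0 h, and 0.93 (0.87 to 0.997) and 0.77 (0.72 to 0.81) at 24 h. *Sod2* was thus below *Sod1* at 0 h and above it at 24 h in both genotypes. At 48 h the ratio was 1.15 in each. Level-corrected, it ran from 1.92 to 0.77 over the 8 libraries, as it did without the correction.

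**Figure D2:**
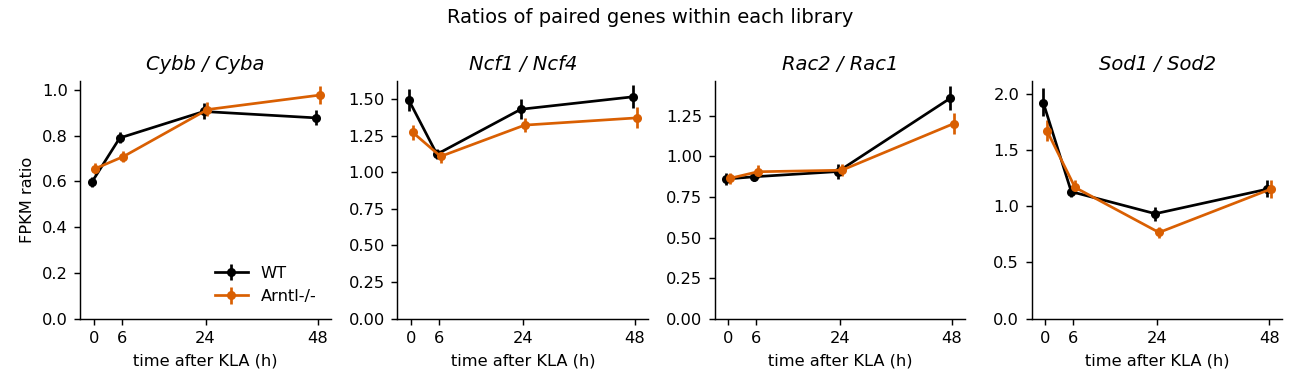
Ratio of the FPKM of 2 genes within each library (linear axes from 0) against time after KLA, with WT in black, Arntl-/- in orange and bars for the 95% counting interval. The ratio of *Sod1* to *Sod2* drops below 1 at 24 h in both genotypes, and that of *Rac2* to *Rac1* passes 1 at 48 h.

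Counted over the 7 genes, the changes after KLA were mostly increases. A change of at least 1.5-fold from 0 h was counted. The shares of all genes analysed, here and below, are without the level correction. Level-corrected counts therefore have no share beside them. In WT cells at 6 h, 0 of the 7 were higher, against 5.39% of the genes analysed, and 1 (*Cyba*) was lower, against 3.58%. Level-corrected, *Sod2* was counted as higher at 6 h (0.60) and *Cyba* was not lower (-0.08). At 24 h, 3 were higher (*Cybb*, *Ncf4* and *Sod2*), against 8.7%, and 0 lower, against 8.84%. Level-corrected, *Ncf4* was no longer counted. At 48 h, 2 were higher (*Cybb* and *Sod2*), against 13.5%, and 0 lower, against 15.2%, while *Cyba*, *Ncf1* and *Ncf4* stopped just short at 1.47- to 1.49-fold. Level-corrected, the log2 changes of these 3 were 0.06, 0.21 and 0.25.

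In Arntl-/- cells, *Sod2* was the 1 gene that rose at 6 h, against 3.1% of the genes analysed, while *Cybb* stopped just short at 1.48-fold, and 0 fell, against 3.4%. *Cybb* and *Sod2* rose at 24 h, 2 of 7 against 7.79%, and 0 fell, against 9.62%. At 48 h, 6 of 7 rose, all but *Ncf4*, against 15.2%, and 0 fell, against 17.3%. Level-corrected, 2 of the 6 remained past 1.5-fold at 48 h, *Cybb* and *Sod2*, as in WT cells. The median log2 change of the 7 genes at 48 h was 0.57 for WT and 0.67 for Arntl-/- BMDMs, and 0.25 and 0.21 level-corrected, beside medians of 0.0033 and -0.01 over all genes analysed.

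**Figure D3:**
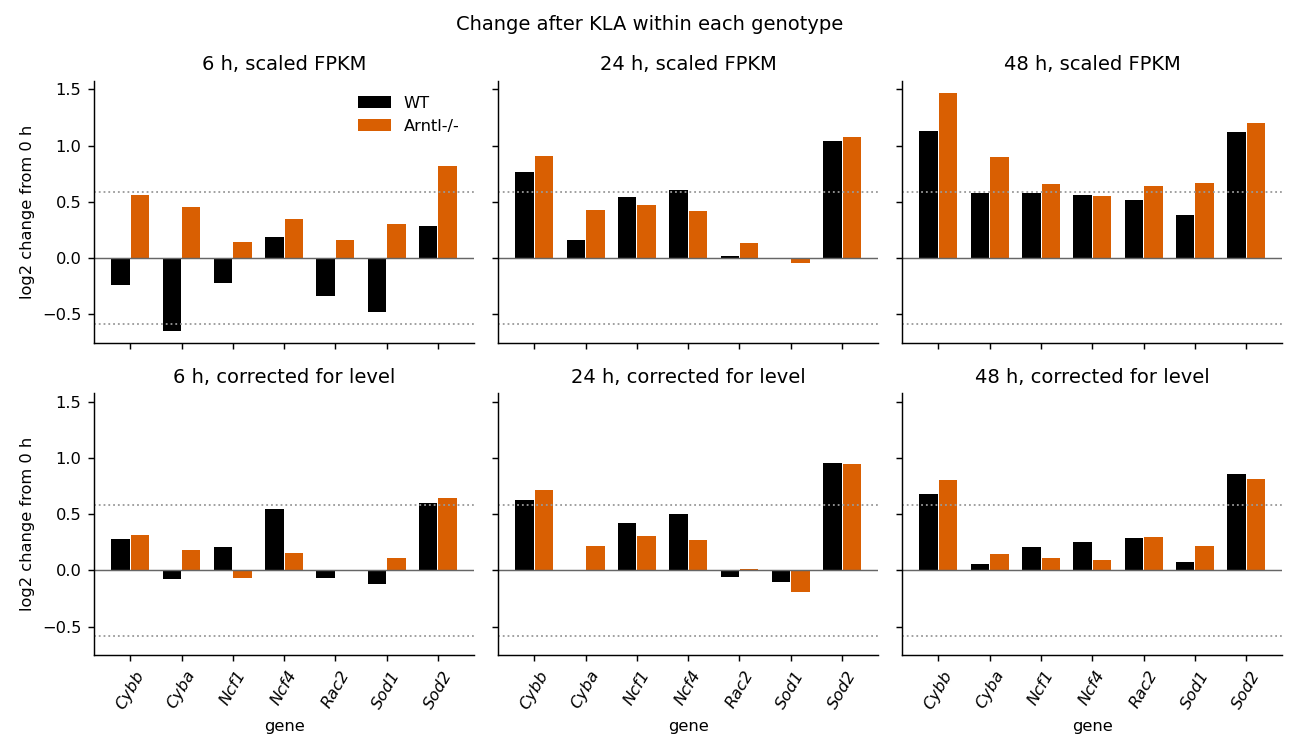
Log2 change from 0 h of each gene at 6, 24 and 48 h, WT in black and Arntl-/- in orange, from scaled FPKM (upper row) and level-corrected (lower row), with dotted lines at 1.5-fold. *Cybb* and *Sod2* stay past the line at 24 and 48 h in both rows, whereas *Cyba* at 48 h shrinks from 0.57 to 0.06 in WT cells.

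The genotypes were compared at each time to ask whether loss of Bmal1 altered these RNAs. At 0 h, 0 of the 7 genes were at least 1.5-fold higher in Arntl-/- cells, against 3.22% of the genes analysed, and 0 were lower, against 1.99%. At 0 h 6 of the 7 log2 ratios were below 0, from -0.45 for *Cyba* to 0.15 for *Ncf4*, and the level-corrected ones ran from -0.14 to 0.34 with 3 above 0. The ratio that stood farthest from 0 without the correction, that of *Cyba*, was at -0.14 with it, and *Ncf4*, with 0.34, then stood farthest.

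At 6 h all 7 genes had higher values in Arntl-/- than in WT cells, with log2 ratios of 0.50 for *Cybb*, 0.65 for *Cyba*, 0.29 for *Ncf1*, 0.31 for *Ncf4*, 0.33 for *Rac2*, 0.48 for *Sod1* and 0.44 for *Sod2*. Only *Cyba* was past 1.5-fold, at 1.57-fold (counting interval 1.51 to 1.64), which is 1 of 7 against 2.03% of the genes analysed, and 0 were lower, against 2.66%. These ratios have the deepest library, WT at 6 h, as their denominator. Level-corrected, they ran from -0.12 for *Ncf1* to 0.13 for *Sod1*, with a median of 0.05 in place of 0.44. *Rac1* moved with the 7, at 0.28 (-0.01 level-corrected), as did 7 of 8 macrophage markers, with a median of 0.40 (-0.13 level-corrected, with 2 of 8 above 0). The 4 neutrophil markers that passed the read filter (*Ltf*, *S100a8*, *S100a9* and *Mmp8*) were all past 1.5-fold higher in Arntl-/- cells at 6 h, with a median of 0.95, and 3 of them, all but *Mmp8*, level-corrected, with a median of 0.87. Their part in the values of the 7 genes was not tested.

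At 24 h all 7 log2 ratios were below 0, from -0.34 for *Sod1* to -0.03 for *Ncf4*. None was past 1.5-fold, so that 0 were higher, against 3.62% of the genes analysed, and 0 lower, against 3.13%. Level-corrected, 6 of the 7 were above 0, and *Sod1* stayed below it at -0.19. At 48 h the ratios ran from -0.13 for *Cyba* to 0.14 for *Ncf4*, and again 0 were higher, against 5.75%, and 0 lower, against 5.91%. Of the 7, 2 were above 0, and 5 level-corrected.

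Over the 4 times the genotypes' values of each gene overlapped. The mean log2 ratio lay between -0.04 (*Sod1*) and 0.14 (*Ncf4*), with SDs over the 4 times of 0.14 to 0.47. *Ncf4* had a higher value in Arntl-/- cells at 3 of 4 times, with 24 h as the exception, and level-corrected it was higher at 3, with 6 h as the exception. On the values as deposited, *Ncf4* was higher in Arntl-/- cells at 4 of 4 times, by 0.01 to 0.23. *Sod2* was higher in Arntl-/- cells at 1 of 4 times, and at 4 of 4 level-corrected, by 0.03 to 0.12. None of these ratios of *Ncf4* and *Sod2* reached 1.5-fold.

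**Figure D4:**
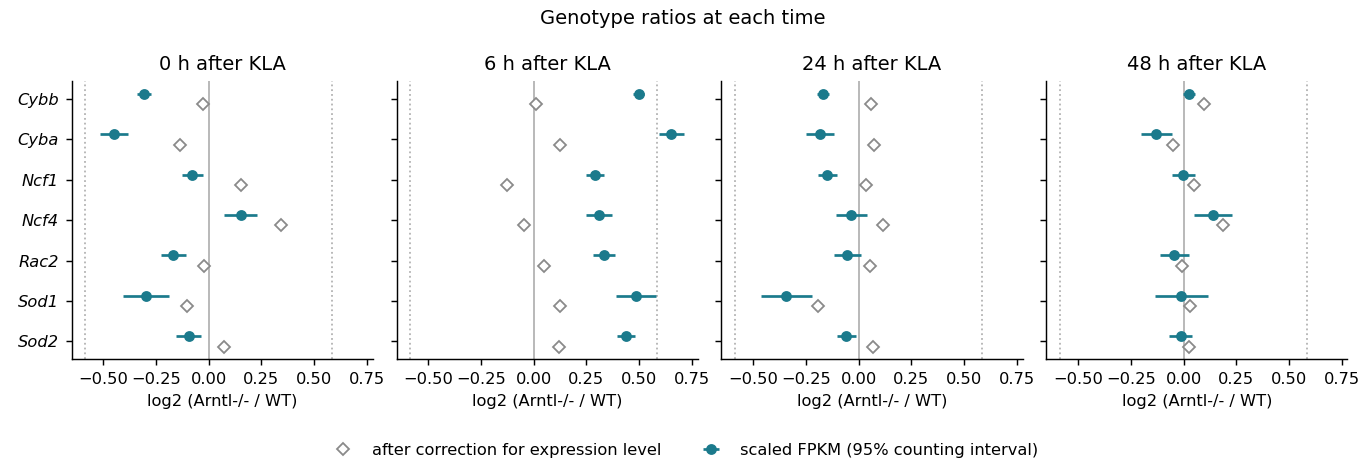
Log2 ratio of Arntl-/- to WT for each gene at 4 times, from scaled FPKM (filled, with 95% counting intervals) and level-corrected (open diamonds), with dotted lines at 1.5-fold. At 6 h all 7 filled points are above 0 and *Cyba* (0.65) is past the line, whereas the open ones lie between -0.12 and 0.13.

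Likeness of course over the 8 libraries was described by Pearson's r of log2 scaled FPKM, over libraries that share depth and scaling. *Cybb* and *Sod2* had r = 0.92, and 0.93 level-corrected. *Cyba* and *Rac2* had r = 0.95, and 0.37 level-corrected. *Sod1* and *Sod2*, the 2 dismutases, had 0.56, and -0.11 level-corrected. Of all genes analysed, those most like *Cybb* were *Rras* (0.994), *C3* and *Tnfrsf1b*, and those most like *Sod2* were *Irg1* (0.987), *Nfkbia* (0.984) and *Ccdc88b* (0.983). The best matches were *Rpl24* (0.998), *Gabarap* and *Rpl36a* for *Cyba*, *Atp13a2*, *Paip2* and *Csf1r* for *Ncf1*, *Tgm2*, *Ceacam19* and *Msl1* for *Ncf4*, *Cd53*, *Gm15441* and *Gpnmb* for *Rac2*, and *Atp5l*, *Rpl35a* and *Cd68* for *Sod1*.

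Other genes of the pathway were counted from lists. Of 10 relatives of the oxidase genes counted here, *Rac1* passed the read filter and was not past 1.5-fold in any of the comparisons between genotypes or with 0 h, and *Duox1* and *Duox2*, the dual oxidases, were listed at 0 in all 8 libraries. Of 14 regulators of assembly or activity, 2 rose at 48 h in both genotypes, a share close to the 13.5% and 15.2% of all genes analysed. These were *Prkcb*, a kinase that phosphorylates the organiser subunit (log2 0.78 for WT and 1.10 for Arntl-/- BMDMs), and *Prex1*, an exchange factor for Rac (0.68 and 0.63). Level-corrected, *Prkcb* alone stayed past 1.5-fold (0.65 and 0.91). *Pak1*, a kinase activated by Rac, fell in both at 48 h (-1.22 and -0.63, and -1.12 and -0.50 level-corrected), so that the Arntl-/- fall was not past 1.5-fold level-corrected. *Vav3*, another exchange factor, fell in both at 24 h (-0.74 and -0.61). Beside these, 15.2% and 17.3% of all genes analysed were lower at 48 h, and 8.84% and 9.62% at 24 h. Between genotypes, *Arhgdia* alone among the 14 was past 1.5-fold, higher in Arntl-/- cells at 6 h (0.62, and 0.24 level-corrected), beside 2.03% of all genes analysed.

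Of 14 genes that remove hydrogen peroxide, 5 rose at 48 h in WT cells, beside 13.5% of all genes analysed, and 9 in Arntl-/- cells, beside 15.2%, and 0 fell in either, beside 15.2% and 17.3%. Level-corrected, 2 rose in WT (*Cat* and *Prdx6*) and 4 in Arntl-/- cells (with *Prdx5* and *Gpx4*). *Prdx4*, a peroxiredoxin of the secretory pathway, had -0.35 and -0.42. The largest increase was that of *Prdx6*, a peroxiredoxin, with 217, 222, 368 and 752 for WT and 256, 240, 328 and 829 for Arntl-/- BMDMs. *Prdx5*, *Cat* (catalase), *Prdx1* and *Gpx4* also rose in both, with mean log2 changes of 1.26, 1.26, 1.17 and 0.83. Between genotypes, *Gpx1*, a glutathione peroxidase, was higher in Arntl-/- cells at 6 h (0.60, and 0.18 level-corrected), 1 of 14 beside 2.03% of all genes analysed, and *Txnrd2*, a mitochondrial thioredoxin reductase, was lower at 48 h (-0.59), 1 of 14 beside 5.91%. The list's median log2 change at 48 h was 0.50 for WT and 0.62 for Arntl-/- BMDMs, and 0.20 and 0.26 level-corrected. Of the dismutase relatives, *Sod3*, the extracellular enzyme, rose at 48 h in both (0.74 and 0.97) from scaled FPKM of 13.5 and 11.6, and was past 1.5-fold lower at 6 h for Arntl-/- (10.9) than for WT (20.8), on 45 to 205 reads per library. Beside this, 13.5% and 15.2% of all genes analysed were higher at 48 h, and 2.66% lower at 6 h. *Ccs*, the copper chaperone of *Sod1*, was not past 1.5-fold.

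Of 6 genes that supply NADPH, 3 rose at 48 h in both genotypes, beside 13.5% and 15.2% of all genes analysed, and 0 fell, beside 15.2% and 17.3%. They were *G6pdx* and *Pgd*, of the pentose phosphate pathway (log2 0.64 and 0.79 in WT, 0.70 and 1.04 in Arntl-/- cells), and *Idh1*, the cytosolic isocitrate dehydrogenase, which was already higher at 24 h (1.09 and 0.98). Level-corrected, *Idh1* stayed past 1.5-fold at 48 h in both (0.73 and 0.75), *Me1*, the malic enzyme, was then past it too (0.68 and 0.66), and *G6pdx* and *Pgd* were not (0.44 to 0.51). *Idh2*, the mitochondrial relative of *Idh1*, fell at 24 h (-0.62 and -0.73). At 24 h, 8.7% of all genes analysed were higher in WT and 7.79% in Arntl-/- cells, and 8.84% and 9.62% were lower. Of 5 transcription factors known at oxidase promoters, *Cebpb* had 748, 490, 1152 and 1002 for WT and 406, 895, 1176 and 1625 for Arntl-/- BMDMs, with genotype log2 ratios of -0.88, 0.87, 0.03 and 0.70 (-0.70, 0.53, 0.17 and 0.74 level-corrected). *Cebpb* alone of the 5 was past 1.5-fold higher in Arntl-/- cells at 6 and 48 h, beside 2.03% and 5.75% of all genes analysed. Level-corrected, the call at 6 h was lost. It and *Cebpa* (-0.77) were lower in Arntl-/- cells at 0 h, 2 of 5 beside 1.99% of all genes analysed, and *Spi1*, which encodes PU.1, *Irf1* and *Irf8* were not past 1.5-fold between genotypes.

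Markers of other cells were read in the same libraries, because in bulk samples fewer cells of a type and less RNA per cell cannot be told apart. All 8 macrophage markers were present, with a summed scaled FPKM of 15240 to 38002 that was lowest at 6 h and highest at 48 h in WT cells. At 48 h 6 of the 8 rose in each genotype, beside 13.5% and 15.2% of all genes analysed, among them *Lyz2* (log2 1.14 in WT and 1.10 in Arntl-/- cells), *Cd14*, *Fcgr1*, *Emr1* and *Csf1r* in both. Level-corrected, *Fcgr1* alone rose in both. Of 11 neutrophil markers in the table, 4 passed the read filter, and their list summed to 1252 to 2914. Neutrophils use the same oxidase. *Mpo*, a neutrophil granule enzyme, was at 0 reads in all 8 libraries, and *Elane* in all but 1. *Ngp*, also below the filter, had 37.5, 33.7, 17.2 and 0 for WT and 84.3, 55.8, 38.8 and 2.72 for Arntl-/- BMDMs. Its value was thus higher in Arntl-/- cells at every time, on 4 reads at 48 h. *Cxcr2* and *Retnlg*, below the filter too, were higher in Arntl-/- cells at 0 h and lower at 6 h. *S100a9* had 165, 210, 150 and 10.2 for WT and 407, 432, 375 and 9.1 for Arntl-/- BMDMs, so it was higher in Arntl-/- cells up to 24 h. *Ltf* was past 1.5-fold higher in them at 0 and 6 h (log2 1.16 at 0 h), and *S100a8* and *Mmp8* at 6 h (0.87 and 0.67), beside 3.22% of all genes analysed at 0 h and 2.03% at 6 h. *Ltf* was listed at 0 at 48 h in both genotypes, *S100a8* and *Mmp8* rose at 48 h in both (*Mmp8* not so level-corrected, at 0.27 and 0.38), beside 13.5% and 15.2% of all genes analysed, and *Mmp8* made up most of the list's sum. The 5 stromal markers summed to 479, 581, 678 and 1363 for WT and 359, 387, 421 and 769 for Arntl-/- BMDMs, lower in Arntl-/- cells at every time. *Col3a1* and *Sparc* were past 1.5-fold lower at all 4 times, *Col1a1* at 2 and *Col1a2* at 48 h (-0.70), whereas *Dcn* was higher at 0 h (1.21). Between 1.99% and 5.91% of all genes analysed were lower at a time. All 5 rose at 48 h in both genotypes, beside 13.5% and 15.2% of all genes analysed. Of the 6 lymphocyte markers none passed the filter. The part of these lists in the values of the 7 genes was not tested.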

How the data were processed

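Polyadenylated RNA of 8 libraries of the 37 samples was analysed, and the other 29 were not analysed here. The authors aligned paired reads to mm9 with STAR, used HOMER to count tags over exons of RefSeq genes, from either strand and with at most 3 tags per position, and deposited FPKM per 10000000 reads. Tool versions are not given in the sources used here. Of the value columns, 4 matched no sample and were not used, and 1 broken line was left out. Reads were recovered from FPKM and exon length, where values were whole multiples of 1 read within 0.25.

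Size factors (median of ratios) scaled the FPKM, log2 ratios used a pseudocount of 0.1, and a change counted at 1.5-fold. The 10499 genes with at least 100 scaled reads in a WT library were analysed. Counting intervals are exact binomial (Clopper-Pearson, 95%) on the reads of 2 libraries or 2 genes and leave out the variation between cultures. The level correction was a lowess curve (fraction 0.3). Lists name at most 5 genes, those past 1.5-fold after KLA in both genotypes at one time or between genotypes at 2 times in one direction, and for each of the 7 genes the 3 best correlated. *Arhgdia*, *Prdx4*, *Me1*, *Gpx1*, *Txnrd2*, *Cebpa*, *Duox1*, *Duox2*, *Mpo*, *Elane*, *Ngp*, *Cxcr2*, *Retnlg*, *Ccs*, *Spi1*, *Irf1*, *Irf8*, *Rac1* and *Gtf2ird2* were named, and ratios within a library added, after values were seen. The genes, lists and alternatives were chosen with earlier results of these data known. One listed item is not reported here. No test was made. The steps were tested on simulated data. Versions were scipy 1.17.1, statsmodels 0.14.6, pandas 2.3.3, numpy 2.4.6 and matplotlib 3.10.9, under Python 3.11.15.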

Additional observations from a re-analysis of the deposited data

Results flagged for a closer look

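For 5 of the 7 genes the value from 0 to 6 h moved down in WT and up in Arntl-/- cells, each in 1 library per time, and the difference was not tested. The log2 change in Arntl-/- minus that in WT cells was 1.101 for *Cyba* (0.45 against -0.65), 0.805 for *Cybb* (0.56 against -0.24), 0.7818 for *Sod1* (0.30 against -0.48), 0.4994 for *Rac2* (0.16 against -0.34) and 0.3674 for *Ncf1* (0.15 against -0.22). Level-corrected, the changes in WT and Arntl-/- cells were -0.08 and 0.19 for *Cyba*, 0.28 and 0.32 for *Cybb*, -0.12 and 0.11 for *Sod1*, -0.07 and 0.0019 for *Rac2*, and 0.21 and -0.07 for *Ncf1*.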

How the results depend on the processing

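No count could be checked by leaving out a library, since each condition had 1. No value of the 7 genes past 1.5-fold reversed under any alternative. The counts that moved by over 1.5 times were these, and smaller moves were those of WT cells at 24 h, from 3 to 2 as deposited and level-corrected (*Ncf4* lost) and to 4 at the lower limit given below, and of Arntl-/- cells at 48 h, from 6 to 7 with upper-quartile scaling or that limit. After the level correction, 2 of 7 genes had risen by 48 h in the Arntl-/- libraries (6 without it), 1 was higher in WT cells at 6 h (*Sod2*, 0 without it) and 0 were lower (1 without it), and 0 had a higher level at 6 h in Arntl-/- than in WT libraries (1 without it). On the values as deposited, these were 3, 0 for WT lower at 6 h and 0 for the genotypes at 6 h. Upper-quartile scaling gave 5 higher in WT cells at 48 h in place of 2. At a lower limit of 0.32 on the log2 scale, 5 had risen by 24 h and 4 by 6 h in the Arntl-/- libraries, 7 by 48 h in the WT libraries, 3 were lower in WT cells at 6 h, 5 favoured Arntl-/- over WT at 6 h, and 1 was lower at 0 h and 1 at 24 h. At 2-fold the counts were 1, 0 and 2 for Arntl-/- at 24, 6 and 48 h, 1 in WT cells at 24 h, 0 for WT lower at 6 h and 0 for the genotypes at 6 h. Of the 28 genotype ratios, 13 changed sign with the level correction, 6 as deposited and 3 with upper-quartile scaling. Of the 42 changes from 0 h, 4, 1 and 0 did. Pseudocounts of 1 and 0.01 changed none. With a filter of FPKM at least 1 (15855 genes), 20.8 to 27.4% of genes were past 1.5-fold between genotypes, and with no filter (24016 genes) 17.2 to 20.2%. For the changes after KLA these shares were 22.7 to 43.2% and 18.8 to 31.9%. Each value rests on at least 1011 reads. *Cyba* reached 6.87 reads per base in the deepest library, WT at 6 h, with at most 3 tags counted per position, and the effect of that limit was not tested. The variation between cultures is not measured.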
